A study of Mus musculus with 8 samples.

Results

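The Trav genes are the variable (V) segments of the T cell receptor alpha chain, carried in 1 array on mouse chromosome 14. They were taken here as every gene whose GENCODE M21 symbol starts with Trav, symbols ending in -dv included, with 10 or more reads summed over 8 RNA-seq libraries of thymocytes. Of the 53465 genes counted, 128 were annotated as Trav, and 87 of these reached 10 reads and are the members described. The other 41 held fewer reads, and 13 of them held none. Near the limit, Trav14d-1, Trav13n-2, Trav7n-6 and Trav7d-2 stood just outside with 9 reads each, while Trav9n-3 with 10 reads and Trav12n-3 with 11 reads stood just inside.

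The samples were CD4+ CD8+ (double-positive) thymocytes, sorted alive from the thymus of C57BL/6J mice, a common inbred laboratory strain, and of NOD/ShiLtJ (NOD) mice, the inbred model of spontaneous autoimmune diabetes. No engineered allele and no treatment was labelled in either strain, and the sources used here give neither age nor sex. There were 4 libraries of each strain, whose titles hold a B number and a T number of unstated meaning. Libraries with the same strain and B number were summed into 2 samples per strain, numbered 1 and 2. Whether a B number stands for an animal of its own is not labelled, so every p-value below reflects the spread among these samples alone, and that spread may be technical.

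A T cell builds its alpha chain by cutting and joining a V segment to a J (Traj) segment, and the joined exon is spliced to the constant region Trac. Double-positive thymocytes are the stage at which this joining takes place. The V segments nearest the J array are used in the earliest joins, and repeated joining on the same chromosome deletes the DNA between and brings in V segments that lie farther away. The middle of the mouse V array was duplicated, and its copies carry a d or an n after the family number (Trav6d-7, Trav6n-7) beside the gene without that letter (Trav6-7-dv9), here called unmarked. Segments with -dv in the symbol can also be joined into the delta chain.

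In GRCm38 the array ran from Trav1 at chr14:52427928-52428876 to Trav23 at chr14:53977153-53977678, all on the plus strand over 1.55 Mb. The first J segment, Traj61, began at 54155005, which was 1726 kb from the first Trav gene and 177 kb from the last, and Trac lay at chr14:54220521-54224206. The 128 genes were ordered by start and divided into 3 parts by rank: 43 distal genes, at least 1112 kb from the J array, 43 central genes, and 42 proximal genes, at most 694 kb from it. Of the 43 distal genes 21 were members, against 28 of 43 central and 38 of 42 proximal genes. By symbol there were 55 unmarked genes (49 members), 39 d copies (17 members) and 34 n copies (21 members).

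Many copies are too alike for a short read to tell them apart. The sequences below are 120-base stretches of the V exon from the GENCODE M21 transcripts, with capitals at the positions where the copies of a set differ. They come from copy sets that hold at least 1 gene past the threshold of the strain test described below. In the Trav6-7 set (chr14:53007834-53007953 for Trav6d-7, chr14:53319020-53319139 for Trav6n-7 and chr14:53710155-53710274 for Trav6-7-dv9, plus strand), the d and n copies were identical over 358 aligned bases and each differed from Trav6-7-dv9 at 6.
Trav6d-7: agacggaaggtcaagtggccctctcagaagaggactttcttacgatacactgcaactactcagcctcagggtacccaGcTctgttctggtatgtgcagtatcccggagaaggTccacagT
Trav6n-7: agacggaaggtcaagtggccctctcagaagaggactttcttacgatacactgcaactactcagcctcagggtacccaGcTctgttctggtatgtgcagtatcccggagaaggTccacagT
Trav6-7-dv9: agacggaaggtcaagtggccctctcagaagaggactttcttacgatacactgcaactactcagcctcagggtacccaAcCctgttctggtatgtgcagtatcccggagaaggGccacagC
In the Trav15-1 set (chr14:52863768-52863887, chr14:53174728-53174847 and chr14:53560079-53560198 in the order printed, plus strand), Trav15d-1-dv6d-1 and Trav15n-1 were identical over 352 aligned bases, and Trav15n-1 differed from Trav15-1-dv6-1 at 16.
Trav15d-1-dv6d-1: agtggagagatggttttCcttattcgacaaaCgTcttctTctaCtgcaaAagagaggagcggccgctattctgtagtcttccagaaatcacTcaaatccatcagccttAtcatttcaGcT
Trav15n-1: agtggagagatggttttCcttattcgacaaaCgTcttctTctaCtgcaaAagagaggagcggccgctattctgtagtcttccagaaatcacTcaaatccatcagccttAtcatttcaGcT
Trav15-1-dv6-1: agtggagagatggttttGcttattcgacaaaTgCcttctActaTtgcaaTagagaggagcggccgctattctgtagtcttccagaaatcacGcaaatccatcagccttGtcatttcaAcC
Every 38-base window of each Trav transcript, the length of the longer mate of a read pair, was looked up in all GENCODE M21 transcripts. In 42 of the 128 genes no window was found in that gene alone, and in 10 genes at least 90% of the windows were. Trav6d-7, Trav6n-7 and Trav15n-1 had no window of their own, whereas 39.2% of the windows of Trav6-7-dv9 were its own. Counts of such genes depend on how reads with several alignments were handled, which is not given in the sources used here.

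The summed level of Trav RNA overlapped between the strains, while the parts of the array it came from differed. The members summed to 124 and 167 reads for each M reads in genes (CPM) in C57BL/6J samples 1 and 2, and to 196 and 131 CPM in NOD samples 1 and 2. These sums rested on 2951 and 4054 Trav reads in C57BL/6J and 9246 and 7317 in NOD, whose libraries were sequenced more deeply (8.527 to 15.702 M reads in genes for C57BL/6J libraries, 23.533 to 30.371 M for NOD). In bulk RNA, fewer cells using a V segment and less RNA per cell cannot be told apart, and the counts do not separate joined from unjoined transcripts.

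In C57BL/6J most Trav reads came from the proximal part, and in NOD the balance lay farther from the J array. The parts also differ in how well reads can be placed. No window of their own was found for 20 of 43 distal, 20 of 43 central and 2 of 42 proximal genes. The median share of own windows was 2.2%, 4.3% and 48.8%. How far this moves the shares below was not tested. Proximal genes took 76.7% and 78.8% of Trav reads in the C57BL/6J samples and 53.6% and 55.8% in the NOD samples. Distal genes took 9.69% and 7.18% in C57BL/6J and 22.4% and 20.6% in NOD. Central genes took 13.6% and 14.04% in C57BL/6J and 24.0% and 23.5% in NOD. For all 3 parts the 4 libraries of a strain stood apart from the 4 of the other: distal shares ran from 6.68% to 10.4% in C57BL/6J libraries and from 19.8% to 23.3% in NOD libraries, and the 95% Wilson intervals of those outermost libraries, 9.06% to 12.01% and 18.6% to 21.1%, did not meet. Such intervals cover counting error only. As means, the distal share went from 8.43% ± 1.78 to 21.5% ± 1.25 (SD, n = 2 samples per strain), a difference of 13.1 percentage points, and the proximal share from 77.7% ± 1.48 to 54.7% ± 1.53, a difference of -23.01 points. With 2 samples against 2 an exact permutation test cannot go below p = 0.33, so the shares are given without a test.

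On the scale of the whole transcriptome, the distal genes together stood at 12.01 CPM in each C57BL/6J sample against 43.8 and 27.1 CPM in the NOD samples, 2.95 times as high by the means. The central genes went from 20.2 ± 4.67 to 38.9 ± 11.3 CPM, 1.93 times as high. The proximal genes went from 113 ± 26.0 to 89.2 ± 22.4 CPM, a ratio of 0.786 that lay within the spread of the samples. Distal and central sums thus lay apart in all 4 samples, and proximal sums overlapped. Among the 8 members with at least 90% windows of their own, which share few or no windows with other transcripts, the 3 distal ones (Trav1, Trav2 and Trav5-1) took 17.3% and 19.1% of the reads of these 8 in C57BL/6J and 50% and 37.5% in NOD, and the 5 proximal ones the rest.

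**Figure D1:**
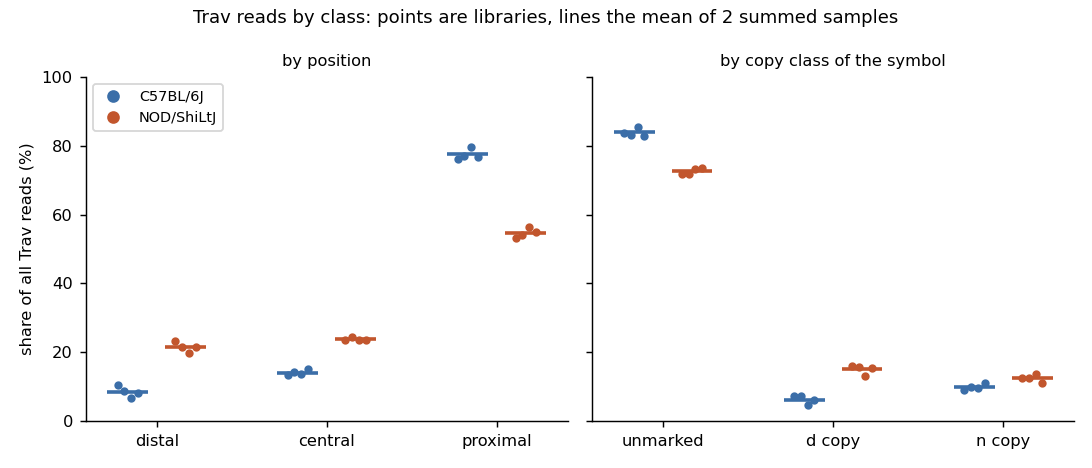
Share of all Trav reads (vertical axis, percent) by position in the array (left) and by copy class of the symbol (right). Points are the 4 libraries of each strain and lines the mean of the 2 summed samples. NOD libraries lie above C57BL/6J libraries for distal and central genes and for d copies, and below them for proximal and unmarked genes.

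By copy class, the unmarked genes took 84.0% ± 0.851 of Trav reads in C57BL/6J and 72.6% ± 1.17 in NOD. The d copies went from 6.22% ± 1.46 to 15.0% ± 1.14. The n copies went from 9.75% ± 0.614 to 12.4% ± 0.0297 over the summed samples, but their libraries overlapped, with 11.13% the highest in C57BL/6J and 10.96% the lowest in NOD. The d copies, which lie from 52683964 to 53082520, fill most of the distal part, so position and copy class cannot be fully told apart. The 8 unmarked genes that lie before all d and n copies, from Trav1 on, give the position without the copies. The 7 members among them took 4.51% ± 0.479 of Trav reads in C57BL/6J and 11.2% ± 0.0933 in NOD, and their sum was 2.81 times as high in NOD. Among the unmarked genes after the copies, the 24 farther from the J array (21 members) took 35.5% ± 1.88 and 35.0% ± 1.06, within the spread. The 23 nearest the J array (21 members) went from 44.1% ± 0.548 to 26.5% ± 2.32.

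**Figure D2:**
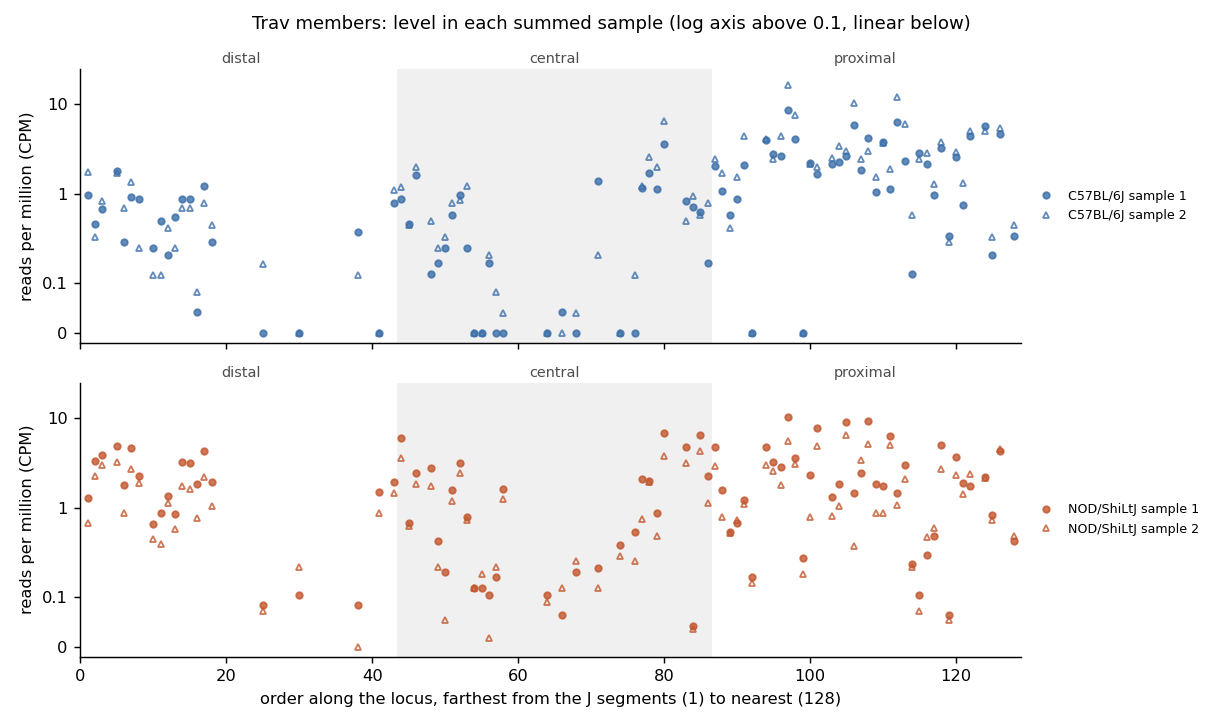
Level of each of the 87 members (vertical axis, CPM, logarithmic above 0.1 and linear below) by its order along the array from the farthest from the J segments to the nearest, C57BL/6J above and NOD below. Filled circles are sample 1 and open triangles sample 2. Distal and central genes lie lower than most proximal genes in C57BL/6J, and closer to them in NOD.

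Each gene was then tested between the strains across the whole table with the quasi-likelihood test of edgeR, calling a gene at a Benjamini-Hochberg adjusted p under 0.05. Of the 87 members, 70 passed the filter on low counts, and 16 of these were called: 11 higher and 5 lower in NOD. That is 22.86% of the Trav genes tested, where 3.68% of all 17291 genes tested were called (1.91% higher and 1.78% lower). A gene can pass the filter through 1 strain alone, which favours large differences. Of the 54 Trav genes that passed in both strains, 7 were higher and 3 lower, where 2.65% of all such genes were called. Another 13 passed in NOD alone, of which 4 were called (13.6% of all such genes were): Trav9d-1, Trav6d-7, Trav7n-4 and Trav15n-1. The 3 that passed in C57BL/6J alone held 2 calls (12.4% of all such genes), Trav6-3 and Trav8-2. These 6 genes were admitted to the test only through the strain where they are high. All 4 NOD libraries lay above all 4 C57BL/6J libraries for 23 of the 70 genes and below for 14, where 16.6% of all genes tested did not overlap (9.43% above and 7.17% below). The calls rest on few samples: leaving out C57BL/6J sample 1 left 3 Trav calls and leaving out sample 2 left 6 (1.33% and 1.87% of all genes were then called), while leaving out NOD sample 2 gave 24 (8.08% of all genes). Trav6-7-dv9 and Trav7-3, which passed the filter in both strains, and Trav8-2, which passed it in C57BL/6J alone, were past the threshold in every one of the 11 alternative fits.

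The sign of the difference varied along the array. The log2 fold change (NOD over C57BL/6J) was above 0 for 17 of 18 distal, 13 of 17 central and 14 of 35 proximal genes tested, with medians of 1.62, 0.97 and -0.56, beside 52.3% of all genes tested above 0 and a median of 0.02. Among the genes that passed the filter in both strains it was above 0 for 10 of 11 distal, 9 of 11 central and 13 of 32 proximal genes, with medians of 1.60, 0.47 and -0.43. Medians did not move when the 2 genes without C57BL/6J reads, Trav6d-7 and Trav6n-7, were set to their lower bound. Across the 70 genes the fold change and the start had a Spearman rho of -0.57, and across the 46 unmarked genes -0.39. Across the 8 genes with at least 90% windows of their own it was -0.05. These are descriptions across genes, which share libraries and in part reads.

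**Figure D3:**
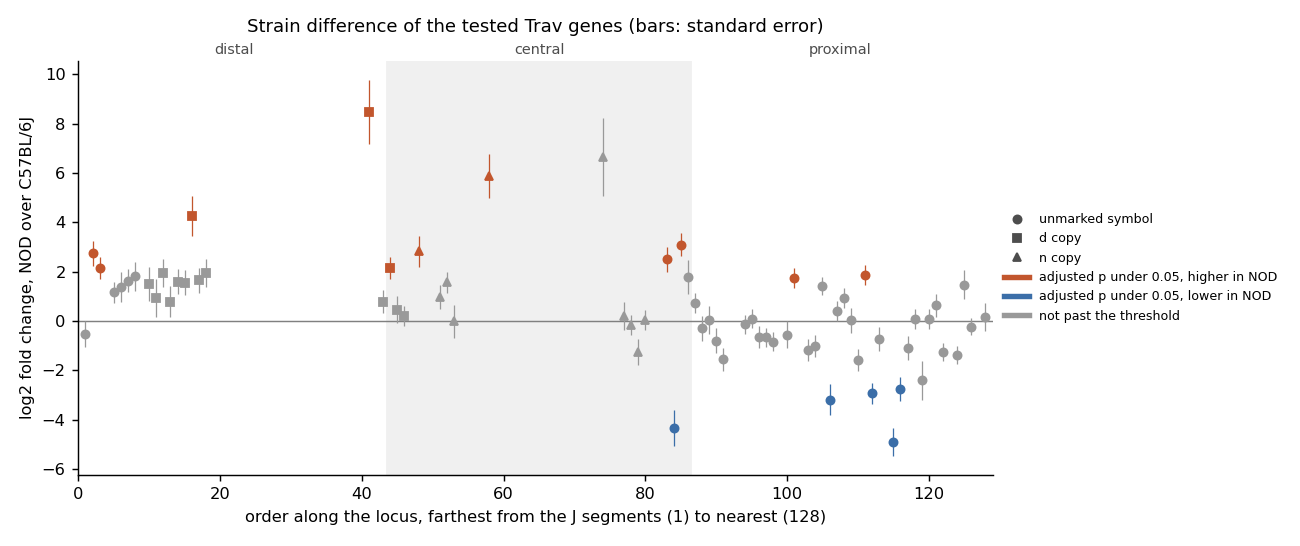
Log2 fold change of the 70 Trav genes tested (vertical axis, NOD over C57BL/6J, bars are the standard error) by order along the array. Circles are unmarked genes, squares d copies and triangles n copies, coloured where the adjusted p was under 0.05. Distal genes lie above 0 except Trav1, the first gene, and 4 of the 5 genes called lower lie in the proximal part; the values of Trav6d-7 and Trav6n-7, which had no C57BL/6J reads, are fitted values that depend on the prior count.

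Of the distal genes, Trav2, Trav3-1, Trav9d-1 and Trav6d-7 were higher in NOD, the last 2 of them tested through NOD alone. Trav2 (chr14:52567198-52568051), the second gene of the array, stood at 0.462 and 0.330 CPM in the C57BL/6J samples and at 3.28 and 2.23 CPM in the NOD samples (log2 fold change 2.74 ± 0.52 SE, adjusted p = 0.0198). All its windows were its own, so no other annotated transcript holds them, and the 4 NOD libraries lay above the 4 C57BL/6J libraries. It is shown by the last 80 bases of its V exon (chr14:52567972-52568051, plus strand), which end at the edge joined to a J segment; no letters are capitalised because it has no copy.
Trav2: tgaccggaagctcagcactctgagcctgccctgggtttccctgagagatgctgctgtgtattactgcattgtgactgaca
Trav3-1 (chr14:52580665-52581213), its neighbour, stood at 0.672 and 0.825 CPM against 3.85 and 3.00 CPM (2.15 ± 0.44, adjusted p = 0.0307). Trav9d-1 (chr14:52792316-52792777) had 129 reads in NOD and 3 in C57BL/6J, a ratio of 20.1 in CPM with an exact 95% interval of 6.72 to 98.6 (adjusted p = 0.0226). Of its windows 22.7% were its own. Trav6d-7 (chr14:53007612-53008098), printed above, had 0 reads in C57BL/6J and 120 in NOD. Against a floor of 3 reads over the strain its counts were at least 18.7-fold higher in NOD (adjusted p = 0.0109). Since it has no window of its own, that ratio bounds its counts and not the level of its RNA. For each of these 4 genes no library of one strain fell within the range of the other. With C57BL/6J sample 1 or sample 2 left out in turn, the adjusted p became 0.104 and 0.132 for Trav2, 0.223 and 0.131 for Trav3-1, and 0.193 and 0.1002 for Trav9d-1. For Trav6d-7 it was 0.0599 without C57BL/6J sample 1.

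The distal gene with the most reads, Trav5-1 (chr14:52622566-52623082), stood at 1.81 and 1.73 CPM in C57BL/6J and 4.89 and 3.25 CPM in NOD. Its libraries did not overlap and all its windows were its own, but it did not pass the test (1.16 ± 0.41, adjusted p = 0.225). Trav1 (chr14:52427928-52428876), the farthest segment from the J array and the V segment of the invariant receptor of MAIT cells, stood at 0.966 and 1.77 CPM against 1.27 and 0.665 CPM. Its libraries overlapped (-0.54 ± 0.53, adjusted p = 0.798), and it was the sole distal gene tested with a fold change below 0. In total, NOD libraries lay above all C57BL/6J libraries for 12 of the 18 distal genes and below for none. Of all genes tested, 9.43% lay above and 7.17% below. The filter admitted 7 of the 18 through NOD alone, which favours such a difference.

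Of the central genes, Trav16d-dv11, Trav7n-4, Trav15n-1, Trav4-2 and Trav7-3 were higher and Trav6-3 was lower in NOD. Of these, Trav7n-4 and Trav15n-1 were tested through NOD alone and Trav6-3 through C57BL/6J alone. Trav7-3 (chr14:53443249-53443839) had the lowest adjusted p of these and went from 0.630 and 0.578 CPM to 6.48 and 4.24 CPM (3.10 ± 0.46, adjusted p = 0.00594). Of its windows 24.9% were its own, and 73.4% were shared with Trav7d-3. Trav4-2 (chr14:53418349-53418873) went from 0.840 and 0.495 CPM to 4.70 and 3.14 CPM (2.499 ± 0.49, adjusted p = 0.0250). Between these genes lies Trav6-3 (chr14:53428711-53430377), which went the other way, from 0.714 and 0.949 CPM to 0.0423 and 0.0359 CPM (-4.34 ± 0.73, adjusted p = 0.0119). It rests on 40 reads in C57BL/6J and 4 in NOD, and only 12.4% of its windows were its own. Its d copy Trav6d-3 differed from it at 1 of 347 aligned bases and stood at 0.504 and 0.124 CPM in C57BL/6J and 0.868 and 0.395 CPM in NOD, with overlapping libraries. That base lies at the end of the stretches below (chr14:52726798-52726917 and chr14:53430256-53430375, plus strand), and the stretches of the Trav7-3 set (chr14:52744666-52744785 and chr14:53443665-53443784, plus strand) show 2 of the 4 differing bases of that pair.
Trav6d-3: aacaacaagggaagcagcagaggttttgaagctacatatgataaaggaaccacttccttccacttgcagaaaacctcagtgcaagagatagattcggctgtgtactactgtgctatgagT
Trav6-3: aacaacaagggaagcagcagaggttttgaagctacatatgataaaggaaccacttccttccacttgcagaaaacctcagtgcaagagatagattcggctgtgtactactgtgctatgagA
Trav7d-3: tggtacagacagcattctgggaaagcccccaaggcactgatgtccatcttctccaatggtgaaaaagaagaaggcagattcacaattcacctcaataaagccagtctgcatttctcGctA
Trav7-3: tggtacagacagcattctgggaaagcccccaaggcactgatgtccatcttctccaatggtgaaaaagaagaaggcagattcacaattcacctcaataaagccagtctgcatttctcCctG

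Trav7d-3, the distal copy of Trav7-3, moved from 0.210 and 0.413 CPM to 1.35 and 1.13 CPM without passing the test (1.95 ± 0.56, adjusted p = 0.118). Trav16d-dv11 (chr14:53047287-53047821) stood at 0.882 and 1.20 CPM in C57BL/6J and at 5.95 and 3.63 CPM in NOD (2.16 ± 0.45, adjusted p = 0.0311). Trav7n-4 (chr14:53091346-53091875) stood at 0.126 and 0.495 CPM against 2.77 and 1.76 CPM (2.82 ± 0.63, adjusted p = 0.0438). Both were higher in every NOD library. Of the windows of Trav16d-dv11 32.0% were its own, and of those of Trav7n-4 40.5%. Trav15n-1 (chr14:53174325-53174896), printed above, had 147 reads in NOD and 1 in C57BL/6J, a ratio of 68.6 with an interval of 12.1 to 2729 (adjusted p = 0.00709). Since Trav15n-1 has no window of its own, that is a ratio of counts and not of RNA levels. With C57BL/6J sample 1 or sample 2 left out in turn, the adjusted p became 0.0813 and 0.153 for Trav4-2, 0.119 and 0.159 for Trav6-3, and 0.236 and 0.108 for Trav16d-dv11, which also missed the threshold without NOD sample 1 (0.0755). It was 0.288 for Trav7n-4 and 0.0645 for Trav15n-1 without C57BL/6J sample 1. The central gene with the most reads, Trav14n-3, had 3.57 and 6.52 CPM against 6.82 and 3.81 CPM and overlapped between the strains (0.04 ± 0.42, adjusted p = 0.982).

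The proximal part held 4 of the 5 genes lower in NOD, Trav14-2, Trav6-7-dv9, Trav8-2 and Trav16, and 2 that were higher, Trav4-3 and Trav5-4. Trav6-7-dv9 (chr14:53709902-53710419), printed above, stood at 6.43 and 12.3 CPM in C57BL/6J and at 1.44 and 1.06 CPM in NOD (-2.93 ± 0.42, adjusted p = 0.00531). Its immediate neighbour Trav5-4 (chr14:53704007-53704514) went from 1.13 and 1.90 CPM to 6.37 and 5.05 CPM (1.88 ± 0.41, adjusted p = 0.0392). Adjacent segments thus moved in opposite directions, each with no overlap between the libraries of the strains. Trav14-2 (chr14:53640701-53641225) stood at 5.84 and 10.3 CPM against 1.44 and 0.377 CPM (-3.19 ± 0.63, adjusted p = 0.0334). Trav16 (chr14:53743104-53743705) stood at 2.18 and 2.89 CPM against 0.296 and 0.467 CPM (-2.75 ± 0.49, adjusted p = 0.0155). Trav4-3 (chr14:53598828-53599410) stood at 1.68 and 1.98 CPM against 7.77 and 4.89 CPM (1.75 ± 0.40, adjusted p = 0.0484). All were separated by strain in every library. The share of own windows was 41.7% for Trav14-2, 38.9% for Trav16, 67.1% for Trav4-3 and 41.8% for Trav5-4. With C57BL/6J sample 1 or sample 2 left out in turn, the adjusted p became 0.154 and 0.185 for Trav14-2, 0.0615 and 0.0784 for Trav16, 0.295 and 0.175 for Trav4-3, and 0.293 and 0.0828 for Trav5-4. Without NOD sample 1 it was 0.210 for Trav4-3 and 0.0609 for Trav5-4.

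Trav8-2 (chr14:53738375-53738838) had the lowest adjusted p of the Trav genes, though it passed the filter in C57BL/6J alone, where it is high. It is annotated as a V pseudogene, as are 20 of the 128. It stood at 2.86 and 2.44 CPM in C57BL/6J (127 reads) and at 0.106 and 0.0719 CPM in NOD (9 reads), a log2 fold change of -4.91 ± 0.57 (adjusted p = 0.00156). It differed from Trav8d-2 at 19 and from Trav8n-2 at 17 of 337 aligned bases, and 52% of its windows were its own. Trav8d-2 stood at 0.798 and 1.11 CPM in C57BL/6J and 1.95 and 1.46 CPM in NOD (0.79 ± 0.46, adjusted p = 0.574), and Trav8n-2 at 1.18 and 1.24 against 2.10 and 0.755 CPM (0.19 ± 0.56, adjusted p = 0.941). Libraries of the strains overlapped for both of these copies, unlike for Trav8-2.

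Per length, in reads per kb of exon and M reads (RPKM), 9 of the 10 members with the highest mean over all samples were proximal. Trav14-1 led in C57BL/6J with 31.2 ± 13.8 RPKM and stood at 20.03 ± 8.52 RPKM in NOD, with overlapping libraries (log2 fold change -0.67 ± 0.39, adjusted p = 0.581). In C57BL/6J it was followed by Trav6-7-dv9 (24.6 ± 10.9 RPKM) and Trav14-2 (20.9 ± 8.19 RPKM), and these did not differ beyond their spread. In NOD, Trav14-1 and Trav13-2 (20.05 ± 4.89 RPKM) led, and Trav6-7-dv9 and Trav14-2 stood at 3.30 ± 0.708 and 2.35 ± 1.94 RPKM. Trav13-2 had been at 7.26 ± 0.665 RPKM in C57BL/6J, and its libraries did not overlap between the strains, though it missed the threshold (1.42 ± 0.35, adjusted p = 0.0677). Trav5-4 stood at 4.42 ± 1.58 and 16.7 ± 2.73 RPKM, and Trav14n-3, the central gene among the 10, at 13.98 ± 5.78 and 14.7 ± 5.89 RPKM. Of the other members with high levels, Trav3-3 stood at 8.66 ± 1.93 and 17.2 ± 6.87 RPKM (adjusted p = 0.362), Trav7-5 at 12.1 ± 0.200 and 11.4 ± 3.65 RPKM (0.943), and Trav15-1-dv6-1 at 14.9 ± 6.21 and 8.47 ± 0.945 RPKM (0.403). Trav21-dv12, with all windows its own, stood at 13.98 ± 1.63 and 12.3 ± 0.566 RPKM (adjusted p = 0.873). The rank order of the 70 genes by log2(CPM + 0.1) was alike within a strain (Spearman rho 0.94 in C57BL/6J and 0.93 in NOD) and less so between strains (0.35 to 0.41), as a description across genes.

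The V segments at the J end of the array have no d or n copies, and nearly all their windows are their own. Trav17, Trav19 and Trav20 were picked for this after their values were seen. Trav17 stood at 4.49 and 4.99 CPM in C57BL/6J and 1.74 and 2.35 CPM in NOD, and Trav19 at 5.75 and 5.04 against 2.18 and 2.12 CPM. Every NOD library lay below every C57BL/6J library for both, and neither passed the test (-1.25 ± 0.38, adjusted p = 0.137, and -1.37 ± 0.36, adjusted p = 0.0872). Trav20, a pseudogene between them and the J array, lay the other way (0.210 and 0.330 against 0.826 and 0.719 CPM, adjusted p = 0.315). Trav23, the last gene, was low in all samples (0.336, 0.454, 0.423 and 0.485 CPM, adjusted p = 0.951). Trav11, which is the V segment of the invariant receptor of NKT cells, had 0 reads in C57BL/6J and 1 in NOD, and its copy Trav11d 0 and 2. The copies have no window of their own. Trav11n, annotated as a pseudogene, had 36 and 77 reads (-0.01 ± 0.67, adjusted p = 0.997).

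The copy sets were then summed, since a sum does not depend on which copy of a set received a read. A sum can still depend on how reads that match several copies were handled. Windows are also shared between sets, such as 11.9% of those of Trav14-1 with Trav14d-3-dv8. How far this moves the sums and the shares within sets was not tested. Of 40 sets with 2 or more genes, 33 held at least 100 reads. Their sums were higher in NOD for 17 of 33, with a median log2 ratio of 0.05 and a range from -2.84 to 2.83. Several sets whose unmarked gene was called lower were closer to equal as sums. The Trav16 set averaged 5.74 ± 1.34 CPM for C57BL/6J and 7.15 ± 1.54 for NOD, while the unmarked gene gave 44.2% of the set's reads in C57BL/6J and 5.51% in NOD. In the Trav8-2 set the sum went from 4.81 ± 0.0299 to 3.22 ± 1.32 CPM and the unmarked share from 54.98% to 2.79%. In the Trav6-3 set the sum went from 1.15 ± 0.102 to 0.671 ± 0.339 CPM and the unmarked share from 72.7% to 5.97%.

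In both the Trav8-2 and Trav6-3 sets the sums of the 2 NOD samples lay below those of the 2 C57BL/6J samples, at ratios of 0.653 and 0.569. In other sets the sums lay farther apart. The Trav6-7 set went from 9.34 ± 4.12 to 2.78 ± 0.775 CPM, with 100% of its C57BL/6J reads and 45.2% of its NOD reads on Trav6-7-dv9. The Trav14-2 set went from 8.10 ± 3.20 to 1.18 ± 0.700 CPM, the lowest log2 ratio of all sets. The Trav7-3 set went from 0.915 ± 0.106 to 6.60 ± 1.74 CPM, the highest, and the Trav4-2 set from 0.856 ± 0.334 to 4.48 ± 1.25 CPM. Over the 33 sets the unmarked gene's share was lower in NOD in 25 and higher in 7, with medians of 93.4% in C57BL/6J and 81.0% in NOD.

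**Figure D4:**
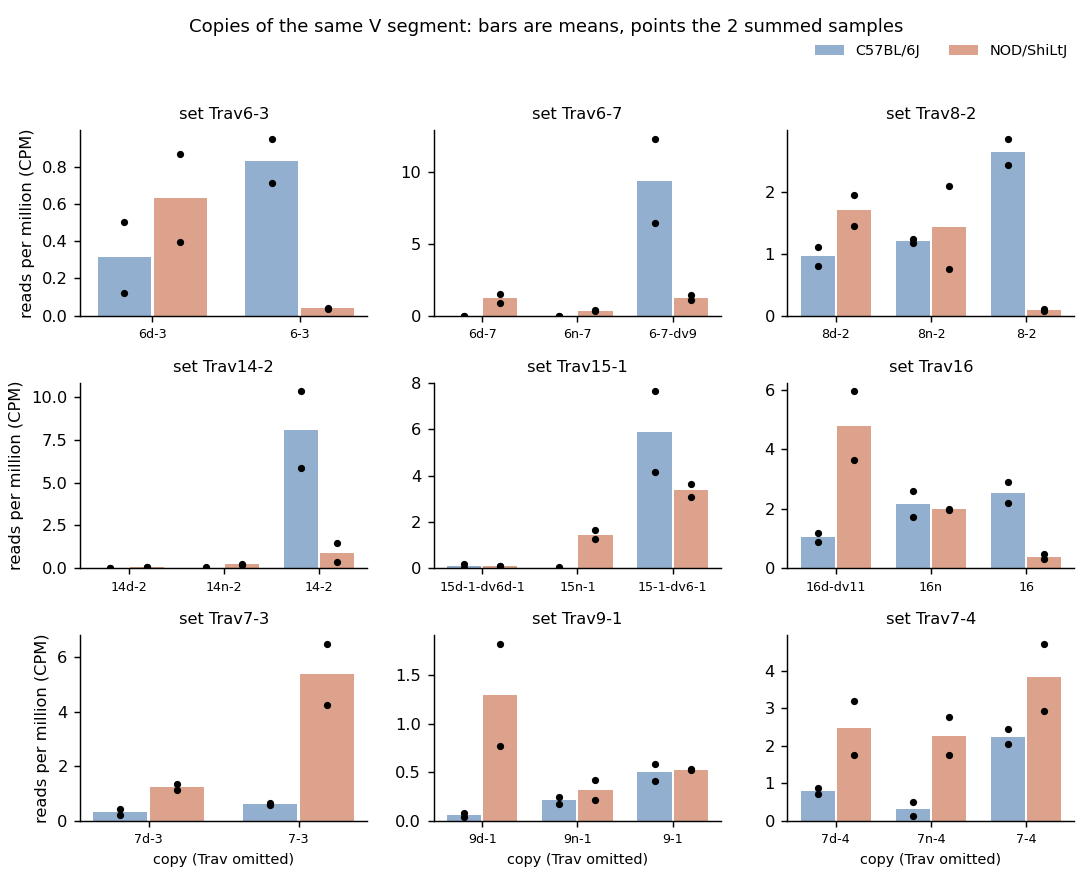
Level of each copy (vertical axis, CPM, own scale in each panel) in 9 copy sets that hold a called gene, in order along the array within a panel. Bars are means and points the 2 summed samples per strain. In the Trav6-3, Trav6-7, Trav8-2 and Trav16 sets the unmarked copy on the right is lower in both NOD samples, while the mean of at least 1 marked copy is higher in NOD.

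Reads on genes with no window of their own came mostly from NOD. The 42 genes with no window of their own held 543 reads in NOD and 13 in C57BL/6J, a CPM ratio of 19.5 (exact 95% interval 11.3 to 36.9), and 35 of them had no C57BL/6J read against 10 without a NOD read. The 76 genes with some windows of their own, but under 90%, held 6074 and 14327 reads, a ratio of 1.10 (1.07 to 1.14). The 10 genes with at least 90% held 939 and 1808 reads, a ratio of 0.899 (0.830 to 0.974). The intervals cover counting error only. Of the 8 genes tested in this last group 1 was called, Trav2, and of the 62 others 15, where 3.68% of all genes tested were called. Across the 70 genes tested, the log2 fold change and the share of windows of their own had a Spearman rho of -0.14 (Pearson -0.25). This is a description across genes that share libraries. Of the 42 genes with no window of their own 11 were members, so most of the 42 were not among those tested. The reference GRCm38 was assembled from C57BL/6J, and the part of sequence differences between the strains in these counts was not tested.

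Traj segments, Trac and the genes flanking the locus were also compared. The delta V, D and J segments were not analysed here as a list. Of the 60 Traj segments, all tested, none was called by edgeR, by DESeq2 or by limma voom over the 8 libraries, and 1 had an unadjusted p under 0.05 (13.1% of all genes tested had), with a median log2 fold change of 0.05. Traj reads summed to 202 and 415 CPM in C57BL/6J and 360 and 225 CPM in NOD. Trac stood at 288 and 287 CPM against 345 and 268 CPM (0.05 ± 0.18, adjusted p = 0.951). The 30 Traj segments nearest the V array gave 30.9% ± 0.693 of Traj reads in C57BL/6J and 35.1% ± 5.94 in NOD, within the spread. Of 151 other genes within 1 Mb of the Trav-to-Trac region, 58 were tested, 3 were higher and 2 lower in NOD (3.68% of all genes tested were called), with a median of 0.01. At an unadjusted p under 0.05, 7 were higher and 7 lower (13.1% of all genes tested in either direction). The lower ones were Sall2, a zinc finger transcription factor (35.8 ± 0.707 and 20.4 ± 0.108 CPM), and the predicted gene Gm43305 (11.7 ± 3.59 and 0.338 ± 0.0296 CPM). The higher ones were Mmp14, a membrane metalloproteinase (5.16 ± 0.00478 and 14.1 ± 2.26 CPM), Slc22a17, a lipocalin receptor (0.373 ± 0.290 and 2.65 ± 0.601 CPM), and the microRNA gene Mir6948, which had no C57BL/6J reads. Slc22a17 and Mir6948 passed the filter through NOD alone, where they are high (13.6% of all such genes were called).

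Genes that carry out or permit the joining were also compared. Of 17 genes of the recombination reaction, none passed the test in edgeR or DESeq2. An unadjusted p under 0.05 was found for 3, all lower in NOD, where 13.1% of all genes tested had one in either direction. Rag1, the recombinase subunit that cuts at V and J segments, averaged 8841 ± 354 CPM for C57BL/6J and 5983 ± 926 for NOD (-0.61 ± 0.21, adjusted p = 0.217), and it was the 1 gene of the list called by limma voom over the 8 libraries. Dntt, the transferase that adds bases at the joint, stood at 1964 ± 168 and 1420 ± 18.8 CPM (-0.52 ± 0.18, adjusted p = 0.226). Both were lower in every NOD library, as were 7.17% of all genes tested. Of 24 genes that shape the locus or the lifespan of double-positive cells, none passed in edgeR, DESeq2 or limma voom, and none had an unadjusted p under 0.05. Satb1, a chromatin organiser of thymocytes, was the highest of them (5773 ± 745 and 4953 ± 602 CPM, adjusted p = 0.718). Of 9 chains that assemble with or precede the alpha chain, none passed in edgeR or DESeq2. An unadjusted p under 0.05 was found for 1 (13.1% of all genes tested had one). limma voom called 1, Ptcra, the chain that precedes the alpha chain, at 27.3 and 48.9 CPM by the means (edgeR adjusted p = 0.179), while the highest of them was Cd3e at 714 ± 70.7 and 968 ± 61.4 CPM (0.409).

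The 6 genes listed as markers of the sorted stage summed to between 13280 and 14770 CPM in C57BL/6J libraries and between 9678 and 12290 CPM in NOD libraries. Rag1 was the highest of them (8841 and 5983 CPM by the means) and Ptcra the lowest (27.3 and 48.9 CPM). The log2 fold change was above 0 for 4 of the 6, and Rag1 and Cd8b1 were lower in every NOD library. Of the marker lists of other cells, 6 myeloid and dendritic genes summed to 10.8 to 13.0 CPM in C57BL/6J libraries and 19.4 to 34.1 CPM in NOD libraries, with Csf1r called higher. The 6 NKT and NK cell genes summed to 2.04 to 4.14 and 5.18 to 7.05 CPM. The 6 genes of gamma-delta and double-negative cells summed to 99.3 to 136 and 101 to 179 CPM, with Trdc the highest of them. Only 3 of these 6 had a log2 fold change above 0, among them Cd44, which was called higher. Il2ra was lower in every NOD library (-0.60 ± 0.26, adjusted p = 0.354). The 6 genes of mature single-positive cells summed to 153 to 169 and 121 to 138 CPM. B cell genes summed to 332 to 374 and 243 to 394 CPM, epithelial genes to 4.27 to 7.35 and 7.34 to 8.47 CPM, and erythroid genes to 1.34 to 5.97 and 1.62 to 14.2 CPM. No marker of these lists was at 0 in all libraries, and the part of other cells in the Trav differences was not tested.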

How the data were processed

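Per the labels' protocols, CD4+ CD8+ cells were sorted as live singlets from dissociated thymi, and a stranded low-input total RNA kit gave libraries that were read as mates of 38 and 37 bases. The authors deposited raw counts, whole numbers of reads per gene without normalization, in 1 table per library. Per the submitters' processing notes, STAR 2.5.0a and HTSeq 0.6.1 were used with build GRCm38, and the annotation release, the strand setting and the handling of reads with several alignments are not given in the sources used here. Reads of both strains were thus placed on a reference assembled from C57BL/6J, and how far this moves Trav counts was not tested. Of the listed reads, 39.98% to 59.1% per library fell in no gene and were not used.

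Symbols, types, coordinates and transcript sequences came from GENCODE M21, which held 53360 of the 53465 genes. Libraries were summed by strain and B number. CPM divides by the reads in genes (23.8 and 24.2 M in the C57BL/6J samples, 47.2 and 55.6 M in the NOD samples), and RPKM also by the union exon length. Genes were kept with filterByExpr (0.28 CPM in 2 samples), scaled by TMM and tested with the quasi-likelihood test of edgeR 4.0.16 in R 4.3.3 (robust, strain as the only term), two-sided, with Benjamini-Hochberg adjustment over 17291 genes. The script was first tested on simulated counts. Alternatives used DESeq2 1.42.0 and limma 3.58.1. A gene at 0 reads in a strain was given a floor of 3 reads over that strain.

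The members and gene lists were chosen with earlier results of these data known. Named were the called members, the 10 with the highest mean RPKM, the first and the last, the V segments of invariant receptors and the one with the most reads in each part, and from each pathway list the called genes and the highest, with any others said to be so. A check of the joining signals after the V exons was not run here, since it needs the genome sequence. Trav13n-3 overlaps the antisense gene Gm43650, and without the strand setting their reads cannot be told apart.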

Additional observations from a re-analysis of the deposited data

Results flagged for a closer look

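In 68 groups of 4 libraries the highest and lowest library was compared with the range of the group, and 2 stood apart, where chance gives about 1 in 20 groups. The share of Trav reads on d copies was 13.1% in library T1 of NOD sample 2, below the 15.5% to 15.9% of the other NOD libraries. It still lay above every C57BL/6J library. Trav15n-1 stood at 0.0637 CPM in library T1 of C57BL/6J sample 2 and at 0 in the other 3 C57BL/6J libraries, which is the single read that C57BL/6J held for this gene.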

How the results depend on the processing

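The position shifts of Trav reads kept their direction in every alternative run. The distal difference of 13.1 percentage points was 25.5 points over the 8 members with at least 90% windows of their own (proximal -25.5) and 19.1 points with the array divided into 2 parts, and the central difference was 10.3 points per kb of exon. Leaving out each sample in turn gave 11.8 to 14.3 points for distal, 9.72 to 10.1 for central, -24.1 to -21.9 for proximal, 7.75 to 9.83 for d copies, 2.23 to 3.10 for n copies and -12.3 to -10.6 for unmarked genes. The log2 ratio of the Trav total, 0.17, turned to -0.03 without C57BL/6J sample 1 and to -0.15 without NOD sample 1 (range -0.15 to 0.43). The 16 calls (11 higher, 5 lower) became 25 (17 and 8; 3.38% of all genes tested) without a filter on low counts, 20 with DESeq2 (4.48%), 16 with limma voom over the 8 libraries (4.94%), 16 with DESeq2 size factors (3.76%), 13 with NOD counts thinned to the C57BL/6J depth (3.55%, chosen after seeing the data), and 3 to 24 when leaving out each sample (1 to 19 higher, 2 to 6 lower). No call changed direction. With the replicate block there were 11 calls (6 higher, 5 lower; 2.97%). The B numbers are only shared numbers: the correlation of deviations of same-numbered samples was -0.12. With the crossed replicate block, also added after seeing the data, there were 17 calls (4.44%). Trav3-1, Trav4-3 and Trav7n-4 missed the threshold with the block and with thinned counts (adjusted p = 0.0641, 0.103 and 0.0742, and 0.0539, 0.0613 and 0.0548), and Trav4-3 with limma voom (0.0506). Trav16d-dv11 and Trav5-4 missed it with the block (0.0645 and 0.0836). The cause of these changes was not tested. Depth limits the low members: 41 annotated genes under 10 reads and 17 members under the filter were not tested.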

Other observations

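By family, the V segments of families Trav3, Trav4, Trav5 and Trav7 summed to more in NOD. The Trav5 family averaged 3.33 ± 0.548 CPM for C57BL/6J and 9.89 ± 2.17 CPM for NOD (SD, n = 2), a log2 ratio of 1.57 of the means. The Trav3 family went from 7.12 ± 0.441 to 13.9 ± 4.47 CPM (0.97), the Trav4 family from 6.48 ± 0.168 to 12.2 ± 3.83 CPM (0.92) and the Trav7 family from 13.7 ± 3.51 to 25.5 ± 7.998 CPM (0.90). In each of these 4 families both NOD samples lay above both C57BL/6J samples. The Trav14 family, the largest by CPM in C57BL/6J, stood at 22.9 and 39.2 CPM there and at 26.5 and 15.0 CPM in NOD, so the strains overlapped (log2 ratio -0.58). The Trav6 family summed to 15.8 ± 4.22 and 16.3 ± 5.13 CPM. Of its 12 genes tested 1 was called higher and 2 lower, where 1.91% and 1.78% of all genes tested were. The Trav12 family, with 4 genes tested and none called, summed to 8.90 ± 1.19 and 7.56 ± 1.55 CPM. These sums were not tested.

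The segments with -dv in the symbol, which the alpha and delta chains share, showed no common direction. Of 10 annotated, 9 were members and 8 were tested. By edgeR 1 was higher (Trav16d-dv11) and 1 lower (Trav6-7-dv9) in NOD, where 1.91% and 1.78% of all genes tested were. The log2 fold change was above 0 for 3 of the 8 (52.3% of all genes tested), with a median of -0.54. The delta constant gene Trdc averaged 64.5 ± 10.4 CPM for C57BL/6J and 80.9 ± 48.5 for NOD (adjusted p = 0.884). Of the 20 Trav pseudogenes, 9 were members and 6 were tested. Of these 6 Trav8-2 alone was called, and it passed the filter in C57BL/6J alone (12.4% of all such genes were called).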
